A study of Mus musculus with 12 samples.

Results

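Bulk RNA-seq of mouse B cells of the Peyer's patches (PP) was searched for the genes named Zfp and a number, the zinc finger protein genes of the mouse nomenclature. Members were chosen by 2 criteria, a symbol made of Zfp, a number and at most 1 further letter, and a deposited value of at least 2 in each of the 12 mice. Of the 36175 genes of the table, 402 had such a symbol and 273 of these met the threshold. The 273 rows carried 272 symbols, because Zfp91 was listed under 2 identifiers. All mice were male wild-type animals of the strain C57BL/6JHsd, which the methods describe as 10 to 12 weeks old. The 6 sham controls had sham surgery and the 6 stroke mice had ischemic brain injury, which the methods describe as blocking the middle cerebral artery for 1 h before letting blood return. PP B cells were collected 18 h later, purified with magnetic beads, and each mouse gave 1 library. Stroke is a surgical model here, and no group carried a transgene or a deletion.

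Most genes of this name code for proteins with C2H2 zinc fingers, small folds in which a pair of cysteines and a pair of histidines hold a zinc ion and which read DNA bases in tandem arrays. Many of them also carry a KRAB domain at the start of the protein. KRAB binds the corepressor KAP1 (gene Trim28), which brings the histone methyltransferase Setdb1 and HP1 proteins to the bound DNA, best known at transposable elements. These KRAB zinc finger genes arose by repeated duplication and lie in clusters of close relatives. Other genes of the same name act on RNA, ribosomes or the spindle, and Zfp318 is known in B cells for allowing the long immunoglobulin heavy chain transcript to be processed to IgD.

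The shared name covered different kinds of protein, so the members were first sorted by sequence. In the GENCODE M21 annotation of GRCm38, 270 of the 272 members found were protein-coding and 2 (Zfp125 and Zfp783) were transcribed pseudogenes. A C2H2 motif was found in 265 of the 270 coding sequences, compared with 2.56% of the other genes tested. The median member had 10 such motifs, 147 members had 10 or more, and the highest number was 36. The 5 without one were Zfp36, Zfp330, Zfp703, Zfp839 and Zfp972. Zfp36 and Zfp330 each held 2 CCCH motifs, which in Zfp36 bind RNA, and Zfp972 held a KRAB A box without fingers. The label of zinc finger transcription factors therefore does not hold for every member, and the members are called Zfp genes below. A KRAB A box, scored as at least 10 of 16 key residues within a window of 30, was found in 159 members (58.9%) and was absent from 111. Among the other genes tested 0.662% held it.

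The promoters of 230 member genes were found in RefSeq (GRCm38.p6), each from 250 bases before to 50 bases after a start site, as 274 sequences. Each was searched on both strands for short motifs of general promoter factors. The NFY box CCAAT was present in 49.6% of the member promoters, 38.1% of those of the other tested genes and 37.4% of all 32851 promoters. The ETS site CCGGAAG was present in 23.4%, 18.2% and 8.86% of these sets, and the SP/KLF box GGGCGG in 47.8%, 60.6% and 35.7%. The ZNF143 site ACTACAA was present in 5.11%, 4.28% and 3.24%. In the same order, the shares were 8.03%, 7.50% and 6.34% for the YY1 site AAGATGG, 4.74%, 5.38% and 2.71% for the NRF1 site GCGCATGC, and 6.57%, 9.99% and 7.15% for the E-box CACGTG. They were 6.57%, 7.98% and 13.6% for the TATA box TATAAA, and 4.01%, 3.11% and 1.79% for the cAMP response element TGACGTCA. The motifs were counted separately, also where their letters overlapped. The classes differed in these letters. Promoters of members with a KRAB motif held CCAAT in 56.4% and GGGCGG in 37.8%, whereas those of members without it held CCAAT in 41.0% and GGGCGG in 60.7%. Their median GC content was 52.0% and 62.3%, respectively, with 60.3% in other tested genes. The shares are descriptions, since genes with several starts counted more than once.

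The promoters of Zfp1, Zfp69 and Zfp687, all among the 5 members with the smallest p for a difference between the groups, and of Zfp318, the most abundant member, are shown 5′ to 3′ on the strand of the gene. Capitals mark matches to these motifs or their reverse complements, none of which overlap here.
Zfp1: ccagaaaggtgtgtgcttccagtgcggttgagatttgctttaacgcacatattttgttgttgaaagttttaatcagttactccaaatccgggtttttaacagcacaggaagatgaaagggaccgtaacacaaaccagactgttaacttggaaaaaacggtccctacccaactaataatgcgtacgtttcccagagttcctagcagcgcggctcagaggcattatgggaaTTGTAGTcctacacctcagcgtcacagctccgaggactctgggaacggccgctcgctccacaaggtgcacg
Zfp69: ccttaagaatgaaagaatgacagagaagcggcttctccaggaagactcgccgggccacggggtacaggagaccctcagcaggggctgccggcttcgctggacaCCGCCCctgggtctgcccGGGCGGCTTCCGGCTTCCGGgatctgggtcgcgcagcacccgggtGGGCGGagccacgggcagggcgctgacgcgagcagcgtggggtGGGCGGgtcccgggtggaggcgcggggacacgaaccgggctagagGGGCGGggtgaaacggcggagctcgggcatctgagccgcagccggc
Zfp687: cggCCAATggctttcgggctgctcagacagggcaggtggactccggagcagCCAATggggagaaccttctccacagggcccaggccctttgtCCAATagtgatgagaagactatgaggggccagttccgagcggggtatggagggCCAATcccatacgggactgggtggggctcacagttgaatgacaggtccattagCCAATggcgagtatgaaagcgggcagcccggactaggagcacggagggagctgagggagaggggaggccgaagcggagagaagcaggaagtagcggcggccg
Zfp318: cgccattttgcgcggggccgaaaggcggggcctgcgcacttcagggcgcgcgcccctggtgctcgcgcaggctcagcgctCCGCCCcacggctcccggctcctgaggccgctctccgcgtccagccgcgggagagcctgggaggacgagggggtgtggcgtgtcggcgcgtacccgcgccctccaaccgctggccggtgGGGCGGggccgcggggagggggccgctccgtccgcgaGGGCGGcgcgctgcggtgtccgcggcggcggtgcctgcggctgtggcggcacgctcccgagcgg
The Zfp1 promoter is at chr8:111643193-111643492 on the plus strand, and that of Zfp318 is at chr17:46383516-46383815 on the plus strand. The Zfp69 promoter is at chr4:120951652-120951951 and the Zfp687 promoter at chr3:95015408-95015707, both on the minus strand. Zfp1 held 1 ZNF143 site in reverse and none of the other motifs searched. Zfp69 held 5 SP/KLF boxes and 2 ETS sites in tandem. Zfp687 held 5 NFY boxes, all on the strand of the gene, and a second RefSeq start of the gene held 6 SP/KLF boxes and 0 NFY boxes in place of them. Zfp318 lay in the most GC-rich of these sequences (80.0%), with 3 SP/KLF boxes and 49 CpG. A match says only that these letters are in the window.

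The values are a normalized signal per gene, labelled by the submitters as normalized TPM, and are comparable between genes per length of transcript. Column totals ranged from 559570 to 1404340, the extremes being sham control 6 and sham control 1, whereas the summed signal of the members ranged only from 5017 to 5833. The share of the members in the column total was 0.358% in sham control 1, the lowest, and 0.946% in sham control 6, the highest. The number of reads behind the values is unknown. Below, pairs of means are given with the sham controls first and the stroke mice second, each ± SD over the 6 mice of the group.

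Sham controls 1, 2 and 6 and stroke mouse 5 stood apart in markers of cell types. The B cell markers were high in all mice, with a summed signal of 2396 to 3045 in sham controls and 1636 to 2825 in stroke mice, the lowest in stroke mouse 5. The summed signal of 8 epithelial markers was 1636 and 1476 in sham controls 1 and 2, 38.7 in sham control 6, and 37.0 to 733 in stroke mice. All 6 epithelial markers tested had a negative log2 fold change (median -1.62), and 0 were called. No marker list separated the groups (smallest p 0.177, exact two-sided permutation test over the 12 mice, B cell markers), and 0 of the 6 lists had more than 1 gene at an unadjusted p under 0.05 in limma. The 1 called was the B cell marker Fcer2a, with a log2 fold change of -0.72 (unadjusted p = 0.0498, limma). The part of these markers in the members' values was not tested. T cell markers summed to 182 to 500 in sham controls and 225 to 365 in stroke mice, plasma cell markers to 295 to 1487 and 372 to 1086, myeloid markers to 36.4 to 292 and 39.1 to 153, and endothelial markers to 78.4 to 105 and 86.7 to 106. Of the endothelial list only Pecam1, which leukocytes also express, was above 3 in any mouse. In bulk samples, fewer cells of a type and less RNA per cell cannot be told apart.

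The members were expressed at low to moderate levels. Their mean signal over the mice had a median of 12.6 (quartiles 7.38 and 22.1), compared with 18.8 for all 12590 genes tested. A mean under 10 was found for 107 members, from 10 to under 50 for 148 and of at least 50 for 18. The 4 members at 100 or more were Zfp318 (210), Zfp106 (176), Zfp638 (130) and Zfp207 (127), and none of them held a KRAB motif. Zfp106 and Zfp638 code for large RNA-binding nuclear proteins, and Zfp207 for a spindle protein that protects the checkpoint factor Bub3. Next were Zfp280d (89.9), Zfp445 (76.1), Zfp865 (76.0), Zfp740 (66.1), Zfp644 (65.9) and Zfp148 (63.2), of which only Zfp445, a KRAB protein that guards imprinted loci, held the motif. Members with a KRAB motif had a median level of 10.02, and members without it of 19.8. Of the 18 members at 50 or more, 4 held the motif and 14 did not.

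**Figure D1:**
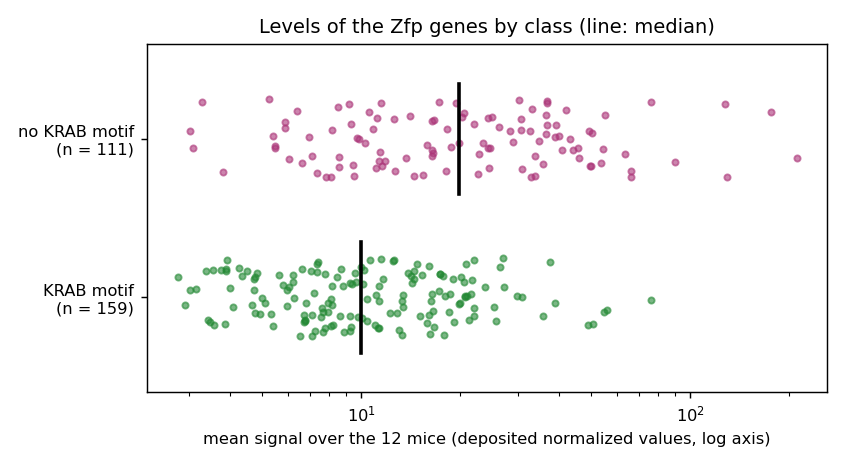
Mean signal of each Zfp gene over the 12 mice on a log axis, with 159 genes that hold a KRAB motif and 111 that do not as points and the class median as a line. The medians are 10.02 and 19.8, and the points above 100 are all in the class without the motif.

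The threshold of 2 chose the members on their own values. Just inside it by their lowest mouse were Zfp760 (2.01), Zfp267 (2.07) and Zfp763 (2.14), and just outside Zfp111 (1.97), Zfp599 (1.93) and Zfp768 (1.93). Of the 129 genes of the name pattern that were left out, 35 had a mean of at least 2 with a mouse under 2, 94 had a mean under 2, and 1 was listed at 0 in every mouse. All 273 members passed the filter of the test, for which no mouse may fall under 1.

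The highest mouse was a median of 1.89 times the lowest, compared with 2.20 for all genes tested. The threshold on the lowest mouse limits this range in the members. Of the members, 155 stayed under 2-fold and 0 exceeded 10-fold. The widest ranges were those of Zfp60 (3.32 to 19.6), Zfp456 (3.33 to 17.1), Zfp52 (5.22 to 26.7) and Zfp354c (3.41 to 16.7), all with a KRAB motif. Stroke mouse 5 was the lowest mouse for Zfp60, Zfp456 and Zfp52, and the highest for Zfp354c. It held the highest value of 68 members and the lowest of 56, more at both ends than any other mouse, and was also the mouse with the lowest B cell markers. Sham controls 1, 2 and 6 held the lowest value of 41, 50 and 39 members, and the highest of 19, 20 and 26. These extremes were not counted over all genes, and the part of the B cell and epithelial markers in them was not tested.

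**Figure D2:**
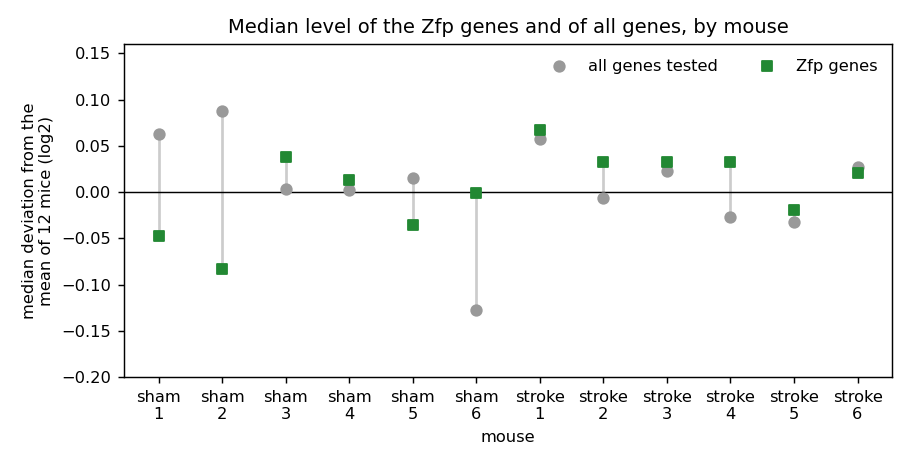
Median deviation from the mean of the 12 mice, on the log2 scale, for the Zfp genes (squares) and for all genes tested (circles) in each mouse. In sham controls 1 and 2 the Zfp genes lie below all genes by 0.11 and 0.17, and in sham control 6 they lie above by 0.13.

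For each gene, the deviation of a mouse from the mean of that gene over all mice was taken on the log2 scale. The members' median deviation was below that of all genes by 0.11 in sham control 1 and by 0.17 in sham control 2. In sham control 6 it was above that of all genes by 0.13. In stroke mice the same difference was between -0.0065 and 0.060. The sham controls therefore spanned a wider range on both sides of the stroke mice, and within the sham group the lowest pair had the highest epithelial markers and the highest had the lowest. Stroke mice 3, 4 and 5 had epithelial sums near that of sham control 6 (44.1, 37.0 and 58.9, compared with 38.7) but member differences of 0.0088, 0.060 and 0.014. The part of the epithelial markers in this difference was not tested.

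The comparison of stroke mice with sham controls asked whether these genes differed in PP B cells after brain injury. Values were tested as log2(value + 0.5) with limma over all 12590 genes. At an unadjusted p under 0.05, 15 members were higher in stroke mice (5.49%), compared with 4.42% of all genes tested, and 2 were lower (0.733%), compared with 1.69%. These are the members called higher or lower below. The share called was thus near that of all genes. No member had a Benjamini-Hochberg adjusted p under 0.05 (0 of 273, smallest 0.716, limma), nor did any of the 12590 genes (smallest 0.468). The remaining 256 members were not called, and no called member differed 2-fold or more. The median log2 fold change was 0.067 for the members and 0.0069 for all genes. A positive sign was found for 174 members (63.7%), compared with 51.4% of all genes, and 217 (79.5%, compared with 73.9%) were within 0.25 of 0. In 1 member, Zfp1, every stroke mouse was above every sham control, which held for 0.349% of all genes. In 0 members was every stroke mouse below every sham control, which held for 0.0874%.

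**Figure D3:**
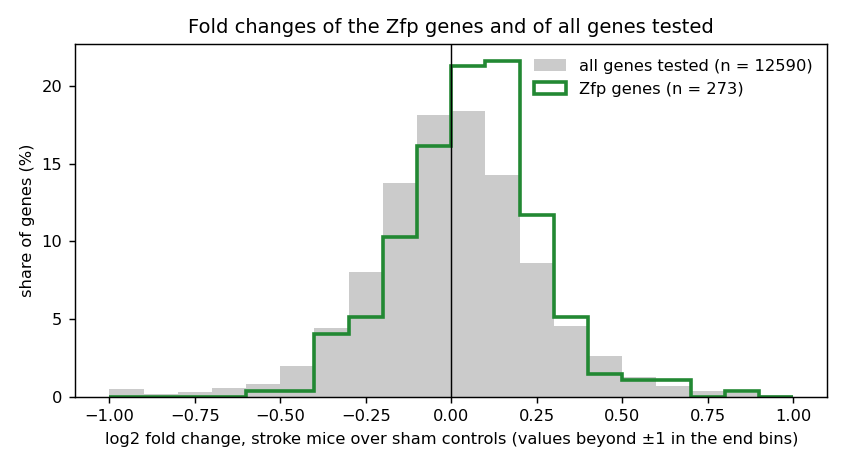
Distribution of log2 fold changes, stroke mice over sham controls, as the share of genes per bin of 0.1, for the 273 Zfp genes (green line) and all 12590 genes tested (gray). The Zfp genes have a median of 0.067 and range from -0.54 to 0.80.

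These counts changed with the mice left out, in both groups, and with the scaling. Without sham control 1 or without sham control 2, 7 members were higher, compared with 3.76% and 3.34% of all genes. Without both, 5 were higher and 2 lower, compared with 3.56% and 1.10% of all genes, with a median log2 fold change of 0.042 for the members and 0.050 for all genes. Without stroke mouse 1 or without stroke mouse 6, 9 were higher, compared with 4.81% and 3.15% of all genes. Without sham control 6, 20 were higher and 7 lower, compared with 7.44% and 9.20% of all genes. Without stroke mouse 5, 11 were higher and 0 lower, compared with 3.46% and 1.24%. After quantile normalization 9 were higher and 4 lower, compared with 3.0% and 2.6%. With all columns rescaled to equal totals 7 were higher and 0 lower, compared with 2.76% and 0.548%. This rescaling moved the median of all genes to 0.13 and that of the members to 0.18.

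Zfp1, a KRAB zinc finger gene at chr8:111643401-111671011 with 8 fingers, had the smallest p of the members. Its signal had a lowest, median and highest value of 15.6, 21.9 and 24.7 in sham controls and 26.1, 33.96 and 71.7 in stroke mice. The groups did not overlap, and stroke mouse 5 stood above all others. The mean was 20.9 ± 3.84 and 38.6 ± 16.9. The log2 fold change was 0.80 (SE 0.22, unadjusted p = 0.0031, adjusted p = 0.716, limma). Without stroke mouse 5 it was 0.61 (unadjusted p = 0.0019, limma).

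Zfp369, a KRAB zinc finger gene at chr13:65278814-65304221 known for binding a neurotrophin receptor, had values of 40.4, 42.0 and 52.1 in sham controls and 49.1, 55.8 and 70.5 in stroke mice. All 6 stroke mice were above the mean of the sham controls, and sham control 4 alone reached into their range. The log2 fold change was 0.41 (SE 0.12, unadjusted p = 0.0048, adjusted p = 0.716, limma). Zfp69, a KRAB zinc finger gene studied for lipid storage and diabetes, was near the low end of the members, at 2.17, 3.28 and 4.12 in sham controls and 3.84, 4.23 and 6.22 in stroke mice. Again sham control 4 alone was above the lowest stroke mouse. For Zfp69 the log2 fold change was 0.50 (SE 0.16, unadjusted p = 0.0086, adjusted p = 0.716, limma).

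Zfp91 codes for a nuclear ubiquitin ligase linked to noncanonical NF-κB signaling. Its row ENSMUSG00000118491, an identifier that GENCODE M21 lacks, had values of 8.62, 9.75 and 16.2 in sham controls and 12.5, 14.2 and 29.4 in stroke mice. Stroke mice 5 and 6 were above every sham control, and the other 4 were below sham control 4. The log2 fold change was 0.63 (SE 0.22, unadjusted p = 0.013, adjusted p = 0.748, limma). Over the 13 settings other than leaving out single mice, given at the end, it ranged from 0.37 to 0.75. The unadjusted p was under 0.05 in 10 of them (limma). The other row, ENSMUSG00000024695, had a mean of 29.4 ± 2.57 and 31.98 ± 4.25, with a log2 fold change of 0.11. How reads were divided between the 2 rows is unknown.

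Zfp687 and Zfp592 code for partners of a nuclear complex with Zmynd8. Zfp687 had values of 15.1, 21.9 and 33.3 in sham controls and 26.6, 31.1 and 62.1 in stroke mice, with sham controls 4 and 6 inside the range of the stroke mice. The log2 fold change was 0.67 (SE 0.25, unadjusted p = 0.018, adjusted p = 0.753, limma), and without sham controls 1 and 2 it was 0.49 (unadjusted p = 0.094). Zfp592, which did not pass, had a mean of 48.7 ± 6.13 and 58.2 ± 8.66. Zfp956, in a run of Zfp genes on chromosome 6, had values of 5.99, 8.50 and 14.0 in sham controls and 9.83, 12.8 and 22.7 in stroke mice. Sham control 6 was above every stroke mouse but number 5. Zfp956 had a log2 fold change of 0.55 (SE 0.22, unadjusted p = 0.024, adjusted p = 0.778, limma). The Zfp956 transcripts share 7.83% of their 31-base words with the overlapping pseudogene Zfp783.

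The other 9 members called higher were Zfp512b (log2 fold change 0.64), Zfp709 (0.49), Zfp940 (0.43), Zfp3 (0.36), Zfp318 (0.31), Zfp827 (0.28), Zfp146 (0.26), Zfp39 (0.25) and Zfp839 (0.24), with unadjusted p from 0.024 to 0.049 and adjusted p of 0.778 to 0.791 in limma. In all of them the groups overlapped. In 12 of the 15, stroke mouse 5 was the highest of all mice. Without it, 7 of the 17 members called in either direction kept an unadjusted p under 0.05, namely Zfp1, Zfp369, Zfp69, Zfp91 (ENSMUSG00000118491), Zfp687, Zfp940 and Zfp3. Zfp1, Zfp369, Zfp69, Zfp91 (ENSMUSG00000118491) and Zfp687 stayed under 0.05 whichever single mouse was left out. The other 12 rose above 0.05 without at least 1 mouse, with an unadjusted p of up to 0.113 (Zfp3 without sham control 1), and kept their sign. Zfp827 fell to 0.18 without stroke mouse 5 (unadjusted p = 0.079) and was under 0.05 in 2 of 12 such fits. Without sham controls 1 and 2 together, 4 of the 17 stayed under 0.05, namely Zfp1, Zfp369, Zfp69 and Zfp940. In that fit Zfp91 (ENSMUSG00000118491) was at 0.53 (unadjusted p = 0.060), Zfp956 at 0.40 (unadjusted p = 0.11), Zfp512b at 0.33 (unadjusted p = 0.159) and Zfp146 at 0.17 (unadjusted p = 0.199).

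**Figure D4:**
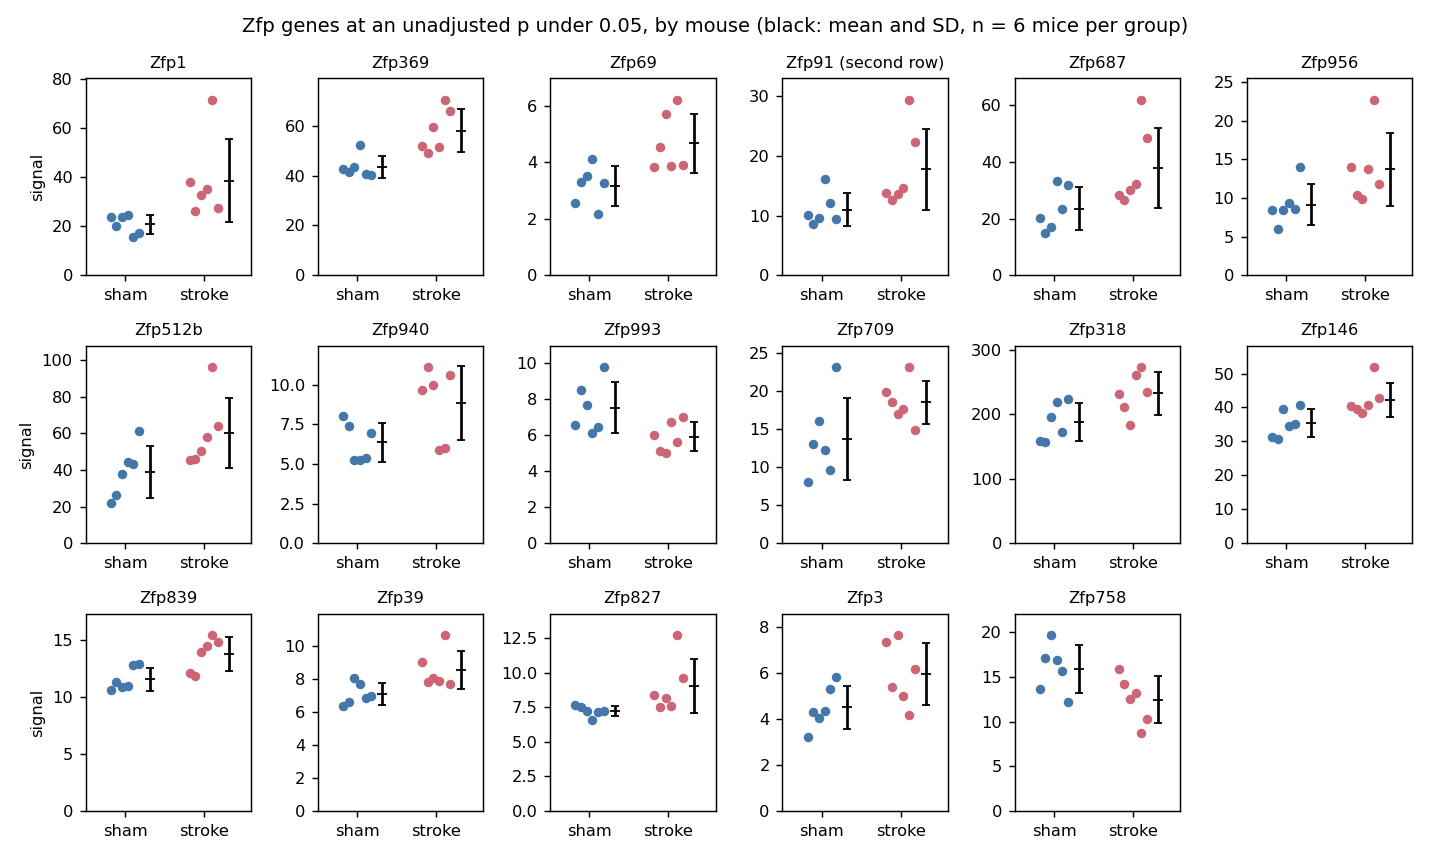
Signal of the 17 Zfp genes with an unadjusted p under 0.05 in each mouse, ordered by p, with the mean and SD of 6 mice per group in black. Zfp1 is the only panel without overlap, with sham controls up to 24.7 and stroke mice from 26.1, and stroke mouse 5 is the highest point in most panels.

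The 2 members called lower were Zfp993 and Zfp758, both with a KRAB motif. Zfp993 had values of 6.11, 7.13 and 9.77 in sham controls and 4.99, 5.83 and 7.002 in stroke mice, and a log2 fold change of -0.31 (SE 0.14, unadjusted p = 0.039, adjusted p = 0.791, limma). All stroke mice were below the mean of the sham controls and the ranges overlapped. Of its 31-base words, the length kallisto matches by default, 91.9% also occur in transcripts of other genes, 86.9% in those of Zfp991. Zfp991, itself a member, had the higher mean in the stroke mice, at 16.5 ± 4.07 and 21.5 ± 5.03, without passing. The division of reads between these relatives is uncertain. Zfp758, whose words were shared for 13.2%, had values of 12.2, 16.3 and 19.7 in sham controls and 8.77, 12.8 and 15.9 in stroke mice. Of the stroke mice, 5 were below the sham mean. Zfp758 had a log2 fold change of -0.34 (SE 0.16, unadjusted p = 0.049, adjusted p = 0.791, limma). Over the 13 settings other than leaving out single mice, given at the end, Zfp993 ranged from -0.35 to -0.18 and Zfp758 from -0.49 to -0.22. Zfp993 had an unadjusted p under 0.05 in 8 of the 13 and Zfp758 in 9 (limma).

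Members differed in how much sequence they shared with other genes. The median member shared 4.67% of its 31-base words, 182 of 272 shared less than 10%, 70 from 10% to 50% and 20 over 50%. Those 20 included Zfp967 (100%, with Zfp968), Zfp965 (97.9%, mostly with Zfp973) and Zfp97 (87.7%, mostly with Zfp960). Zfp965 had the lowest log2 fold change of the members (-0.54, unadjusted p = 0.060, limma), at 7.97 ± 2.05 and 5.59 ± 2.44, whereas its relative Zfp973 was at 7.84 ± 2.21 and 8.65 ± 1.15. Without 1 mouse at a time the Zfp965 value was between -0.71 and -0.35, with an unadjusted p under 0.05 in 4 of 12 fits and of up to 0.143 (without stroke mouse 6). Values of these 20 genes cannot be assigned to 1 gene with certainty. Among the 20, 0 members were called higher and 1 lower, and of the members read at or under 50%, 14 were called higher and 1 lower, beside 4.42% and 1.69% of all genes tested.

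By class, 6 members with a KRAB motif were called higher and 2 lower (of 159), and 8 without it were called higher and 0 lower (of 111), beside 4.42% higher and 1.69% lower among all genes tested. The 15th, the second row of Zfp91, was in neither class because its coding sequence was not read. The median log2 fold change was 0.045 with the motif and 0.095 without it, with a positive sign for 98 and 73 members. No test was made between the classes.

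The KAP1 list held genes of partners of KRAB zinc finger proteins and of histone H3K9 methylation, and not all of them act only with KRAB proteins. All 25 genes of the list were present in all mice and were tested. Of these, 0 were called in either direction (limma, unadjusted p under 0.05), beside 4.42% higher and 1.69% lower among all genes. Their median log2 fold change was 0.051, compared with 0.0069 for all genes. Trim28, the gene of KAP1, was at 119 ± 20.7 and 111 ± 11.4, and Setdb1 at 20.9 ± 2.33 and 21.9 ± 1.51. Atrx, a chromatin remodeler that deposits histone H3.3 with Daxx, had the smallest p of the list, at 257 ± 64.6 and 333 ± 90.9. Its log2 fold change was 0.37 (SE 0.19, unadjusted p = 0.078, adjusted p = 0.791, limma), 0.24 without stroke mouse 5, which was highest, 0.47 (unadjusted p = 0.024) without sham control 6 and 0.16 (unadjusted p = 0.406) without sham controls 1 and 2.

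Of the 13 rows of members with roles in RNA, ribosomes, ubiquitin, SUMO or the spindle, 2 were called higher (Zfp318 and the second row of Zfp91) and 0 lower, beside 4.42% and 1.69% of all genes. Their median log2 fold change was 0.10, and that of all genes 0.0069. Zfp318 had values of 157, 185 and 224 in sham controls and 183, 233 and 273 in stroke mice. Sham controls 4 and 6 were above stroke mice 2 and 3. The mean was 188 ± 29.6 and 233 ± 32.9. Its log2 fold change of 0.31 (SE 0.14, unadjusted p = 0.040, adjusted p = 0.791, limma) was 0.19 (unadjusted p = 0.204) without sham controls 1 and 2. The ratio of Ighd to Ighm, the transcripts whose balance Zfp318 is known to set, was -1.502 ± 0.479 and -1.648 ± 0.288 on the log2 scale, a difference within the spread between mice (p = 0.597, exact two-sided permutation test). Zfp106 was at 160 ± 20.2 and 193 ± 26.4, with all 6 stroke mice above the sham mean. Its log2 fold change was 0.27 (SE 0.13, unadjusted p = 0.054, adjusted p = 0.791, limma). Without 1 mouse at a time it was between 0.21 and 0.31, with an unadjusted p under 0.05 in 3 of 12 fits and of up to 0.118.

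Zfp36 codes for tristetraprolin, which directs the decay of AU-rich mRNAs such as that of TNF. It was at 61.6 ± 14.6 and 47.0 ± 16.1, with a log2 fold change of -0.42 (SE 0.24, unadjusted p = 0.103, adjusted p = 0.793, limma). Leaving out 1 mouse at a time gave -0.56 to -0.25, with an unadjusted p under 0.05 in 2 of 12 fits and of up to 0.245 (without stroke mouse 5). Its relative Zfp36l2, outside the name rule, was at 52.6 ± 22.4 and 119 ± 31.5. Zfp36l2 had a log2 fold change of 1.24 (SE 0.29, unadjusted p = 7.7e-04, adjusted p = 0.549, limma), and the ranges overlapped. The third relative tested, Zfp36l1, had a lower mean in stroke mice without passing, at 112 ± 24.2 and 91.7 ± 17.6 (unadjusted p = 0.120, limma). The ribosome assembly factors Zfp622 and Zfp593 had lower means in stroke mice without passing, the former at 42.2 ± 11.2 and 35.8 ± 5.09 and the latter at 6.25 ± 1.93 and 4.54 ± 1.10. Their log2 fold changes were -0.19 (unadjusted p = 0.336, limma) and -0.38 (unadjusted p = 0.126). Zfp622 ranged from -0.36 to -0.11 and Zfp593 from -0.59 to -0.29 over fits without 1 mouse, and for each only the fit without sham control 6 gave an unadjusted p under 0.05. Without sham controls 1 and 2 they were -0.038 and -0.23. Zfp593 shares 71.5% of its words with the overlapping gene E130218I03Rik. Zfp326, part of a complex that links transcription and splicing, was at 32.7 ± 7.06 and 40.1 ± 10.2. The log2 fold change of Zfp326 was 0.29 (unadjusted p = 0.133, limma), 0.18 without sham control 1, 0.15 without sham controls 1 and 2, and 0.16 without stroke mouse 5, which was highest. Zfp598, the ubiquitin ligase that marks collided ribosomes, was at 19.1 ± 2.38 and 20.5 ± 2.63. The SUMO ligase gene Zfp451 was at 24.7 ± 3.65 and 25.4 ± 5.02, and Zfp346, which binds double-stranded RNA, at 32.5 ± 4.88 and 35.1 ± 5.71.

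Of 18 general C2H2 regulators without a KRAB domain, 13 were members, and 1 (Zfp687) was called higher and 0 lower, beside 4.42% and 1.69% of all genes. Their median log2 fold change was 0.13, compared with 0.0069 for all genes. The other 5, Zfp423, Zfp462, Zfp521, Zfp532 and Zfp711, did not pass the filter and had a mean of at most 1.59 in either group. Zfp521 and Zfp423 are antagonists of the B cell factor Ebf1. Zfp143, an activator at many promoters, was at 22.6 ± 2.99 and 21.4 ± 2.87, and Zfp148 at 64.3 ± 8.07 and 62.0 ± 6.71. Zfp410, whose main known target is Chd4, was at 32.7 ± 6.52 and 34.9 ± 3.15, and Chd4 itself at 222 ± 35.1 and 227 ± 25.9. Zfp865, with 20 fingers, ranked among the 10 most abundant members at 66.4 and 85.6. The log2 fold change was 0.34 (unadjusted p = 0.145, limma), and 0.22 to 0.49 without 1 mouse at a time, with an unadjusted p under 0.05 in 1 of 12 fits (without stroke mouse 4). Without sham controls 1 and 2 it was 0.16.

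The members were unevenly spread over the genome, with 60 on chromosome 7, 37 on chromosome 17, 26 on chromosome 13 and 20 on chromosome 8. Another member lay within 100 kb of 135 of them. This held for 110 of the 159 with a KRAB motif and for 24 of the 111 without it. There were 14 runs of at least 4 members with gaps of at most 100 kb. The longest, chr13:67254918-67827002, held 18 members from Zfp458 to Zfp273, all with a KRAB motif, at levels of 3.02 to 20.9. Its median log2 fold change was -0.031, and 0 of the 18 were called. The run at chr7:29768552-30169750 held 12 members, of which 2, Zfp940 and Zfp146, were called higher, with a median of -0.026. The run at chr6:47835661-48086593 held Zfp398, Zfp282, Zfp212, Zfp783, Zfp956, Zfp777 and Zfp746. All 7 had a positive log2 fold change, with a median of 0.24, and 1 of the 7 (Zfp956) was called. The run at chr8:69610857-69791178 also had a positive sign in all of its 5 members, with a median of 0.043 and 0 called. Of all members, 63.7% had a positive sign. The run on chromosome 6 was picked out of the 14 runs after the values were seen. Among all genes tested, 4.42% were called higher and 1.69% lower.

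**Figure D5:**
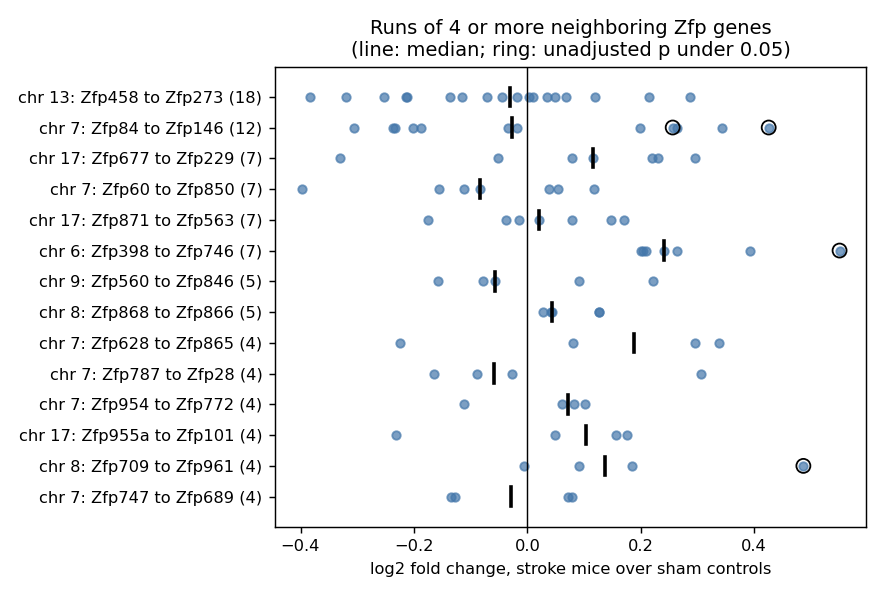
Log2 fold change, stroke mice over sham controls, of the members of the 14 runs of at least 4 neighboring Zfp genes, with each row named by chromosome, first and last gene and number of genes. Lines mark medians, from -0.084 to 0.24, and rings mark the 4 genes of these runs with an unadjusted p under 0.05.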

How the data were processed

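RNA-seq libraries of PP B cells from 12 mice were analyzed from the deposited table. Per the labels and methods, the authors trimmed reads (Trimmomatic 0.39), ran kallisto 0.48.0 on the GRCm38 transcripts of Ensembl release 102, and used sleuth 0.30.0 in R 4.1.2. The deposited values are a signal per gene labelled as normalized TPM. Because the column totals differ, they were not treated as plain TPM, and read depth is unknown. No column was left unused.

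From these, log2(value + 0.5) was tested with limma 3.58.1 in R 4.3.3 on the 12590 genes at 1 or more in every mouse, with Benjamini-Hochberg adjustment, no covariate and no block. The authors' sleuth test needs files not used here and was not run. Groups came from the treatment label, with 6 mice each. The fit was tested on simulated data with independent genes. The simulated shift was larger than any member's fold change, so this did not check the members' calls. A member was called at an unadjusted p under 0.05. Members and lists were chosen with earlier results of these data known. Named were all called members, the 10 most abundant, the 3 nearest the threshold on either side, and genes of the role, KAP1, Zfp36 family and marker lists. Members with the widest range, the lowest fold change or the most shared sequence, and their relatives, were named after their values were seen. A marker score is the mean log2(value + 0.5) of its list, compared by an exact permutation test. Coding sequences, gene positions and shared 31-base words came from GENCODE M21, promoters from RefSeq GRCm38.p6. Alternatives were other pseudocounts, filters, scalings, weights, a variance trend, a replicate block, other member thresholds and leaving out mice. Leaving out sham controls 1 and 2, or 1, 2 and 6, and a member rule changed together with the filter, were added after seeing the data.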

Additional observations from a re-analysis of the deposited data

Results flagged for a closer look

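Among the called members, 34 groups of 6 mice were examined for a single mouse far from the others. Dixon's criterion at the 5% level compares the gap to the nearest mouse with the group's range. It was applied to the signal and not to its log2. Chance passes about 1 in 20 independent groups if the values are normally distributed, which was not tested. Here 5 passed, but the groups share the same 12 mice and the genes were chosen by their p, so that rate does not apply to them directly. Stroke mouse 5 was far above the other stroke mice in 4 of them. Its signal was 71.7 for Zfp1 (others 26.1 to 38.1), 22.7 for Zfp956 (9.83 to 13.9), 96.1 for Zfp512b (45.6 to 64.2) and 51.8 for Zfp146 (38.3 to 42.8). Sham control 4 was at 52.1 for Zfp369 (40.4 to 43.3). Stroke mouse 5 also had the lowest B cell marker score, at 7.40, compared with 8.08 to 8.42 in sham controls. The part of this in the 4 values was not tested.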

How the results depend on the processing

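Under the other settings no member had an adjusted p under 0.05 in limma, and none of the 26 genes refitted (the 17 called members and 9 other genes) changed the sign of its log2 fold change. Zfp1, Zfp369, Zfp69 and Zfp940 kept an unadjusted p under 0.05 in all 13 settings other than leaving out single mice. The other called members did so in 4 (Zfp3) to 11 (Zfp687 and Zfp956) of the 13. Zfp39 and Zfp827 did so in 5 and Zfp839 in 6, and the log2 fold change of Zfp39 fell as low as 0.13. In the following, the share of all genes called in the same direction stands in parentheses. The count of 15 members higher (4.42%) became 9 with median-of-ratios scaling (3.66%), 7 with equal totals (2.76%), 9 with quantile normalization (3.0%), 5 without sham controls 1 and 2 (3.56%) and 8 without sham controls 1, 2 and 6 (3.9%), and was 20 with sample quality weights (6.88%). The count of 2 lower (1.69%) became 1 with a filter at a mean of 1 (1.6%), median-of-ratios scaling (2.1%), an intensity trend (1.67%) or members at 5 in every mouse (1.69%), and 0 with equal totals (0.548%). It became 4 with quantile normalization (2.6%), 6 with sample quality weights (5.58%) and 4 without sham controls 1, 2 and 6 (2.19%). Members chosen by a mean of 2 gave 2 lower, and 1 where the filter at a mean of 1 was changed as well (1.6%). The median log2 fold change of the members became 0.182 with equal totals, beside 0.127 for all genes. Leaving out 1 mouse at a time gave 7 to 20 members higher and 0 to 7 lower, and a median of 0.051 to 0.080. The cause of these changes was not tested.

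With a replicate block, 12 members were higher and 5 lower, compared with 6.12% and 3.21% of all genes. The labels number the mice of both groups from 1 to 6 without saying why. Deviations of same-numbered mice correlated at 0.013 to 0.494, and 2 of 6 sham controls correlated best with their own number, so the mice were not treated as paired. Depth is unknown, so counting error could not be given for low members.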
